A study of Mus musculus with 32 samples.

Results

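The collagen genes of mouse skeletal muscle were read from a table of RNA-seq read counts per gene. A row was taken as a collagen gene when its Ensembl identifier belonged to a protein-coding gene with a symbol made of Col, a number, the letter a and a number. This rule found 44 genes among 55487, of which 11 encode chains of fibrillar collagens, 6 encode chains of the basement membrane collagen type IV, and 27 encode other chains. The rule reads symbols and no measured value.

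Collagens are triple helices of 3 chains, and they form much of the connective tissue around muscle fibres. Fibrillar collagens such as types I, III and V give the endomysium, perimysium and tendon their tensile strength, while type IV forms the network of the basement membrane that wraps each fibre, capillary and Schwann cell. The remaining types sit on fibrils, form beaded filaments or short networks, anchor basement membranes or span the cell membrane. In muscle, fibroblasts make most of the fibrillar chains, whereas fibres, endothelial cells and Schwann cells also make basement membrane chains. TGF-beta family ligands, which signal through type I receptors such as those encoded by Acvr1b and Tgfbr1, are known inducers of collagen synthesis in fibroblasts.

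Left gastrocnemius medialis, a fast muscle, and left soleus, a slow muscle, were taken from 16 mice of 4 genotypes, with 4 mice per genotype. The genotypes were control, Acvr1b KO, Tgfbr1 KO, and the combined knockout labelled Acvr1b and Tgfbr1 KO, called double KO here. Genes were deleted in myofibres only, by tamoxifen given at 6 weeks of age, and muscles were collected 3 months later, so the 32 libraries form 8 groups of 4. The Cre driver, the sex of the mice, and whether the control mice carried Cre or received tamoxifen are not given in the sources used here. RNA came from the whole muscle, so the receptors remained in the fibroblasts, endothelial cells and Schwann cells whose collagen RNA is measured together with that of the fibres. In such tissue, fewer cells of a type and less RNA per cell cannot be told apart.

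Library totals ran from 16535118 to 54456450 counts. Myofibre markers fitted the labelled muscles, with Myh7, the slow myosin, at 8443 ± 1228 CPM (counts scaled to a common library size; SD, n = 4) in control soleus and 817 ± 186 in control gastrocnemius. Acvr1b was at 107 ± 10.03 CPM in control gastrocnemius, 25.6 ± 1.60 in Acvr1b KO and 17.5 ± 4.10 in double KO. Tgfbr1 was not lower in its own knockout, at 28.5 ± 6.75 CPM in control, 29.5 ± 3.33 in Tgfbr1 KO and 47.8 ± 7.38 in double KO gastrocnemius; counts over a whole gene do not show the loss of single exons. Over all genes, 5 libraries stood apart from their own groups, namely replicate 1 of control, of Tgfbr1 KO and of double KO in gastrocnemius, and replicate 1 of Acvr1b KO and of double KO in soleus. Results that change without them are given with and without them.

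The promoters of 3 members that differed between double KO and control gastrocnemius are shown, since Col7a1 and Col8a1 were higher there and Col11a1 was lower. Each is the 250 bases before the RefSeq start of the gene on mouse build GRCm38.p6, read 5′ to 3′ on the strand of the gene, with matches to the motifs searched in capitals. The windows lie at chr9:108953336-108953585 on the plus strand, chr16:57754738-57754987 on the minus strand and chr3:114030290-114030539 on the plus strand.
Col7a1: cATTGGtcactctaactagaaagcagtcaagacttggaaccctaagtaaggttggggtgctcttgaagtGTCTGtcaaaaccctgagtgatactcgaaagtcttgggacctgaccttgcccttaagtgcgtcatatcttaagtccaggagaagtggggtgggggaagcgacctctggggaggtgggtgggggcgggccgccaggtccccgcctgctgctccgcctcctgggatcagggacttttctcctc
Col8a1: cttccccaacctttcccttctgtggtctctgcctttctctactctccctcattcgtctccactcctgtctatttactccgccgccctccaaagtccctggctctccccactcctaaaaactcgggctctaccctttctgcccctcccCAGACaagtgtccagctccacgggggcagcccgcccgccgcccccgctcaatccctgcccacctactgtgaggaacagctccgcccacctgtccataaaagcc
Col11a1: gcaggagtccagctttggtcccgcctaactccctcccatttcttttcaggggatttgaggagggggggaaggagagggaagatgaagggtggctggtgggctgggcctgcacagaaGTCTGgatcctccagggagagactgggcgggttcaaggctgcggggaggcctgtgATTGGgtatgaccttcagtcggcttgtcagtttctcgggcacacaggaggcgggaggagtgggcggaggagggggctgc

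The motifs searched on both strands were CAGAC (the core bound by SMAD proteins), TGANTCA (bound by AP-1), CCAAT (the CCAAT box) and TATAAA (the TATA box). The SMAD core CAGAC or its complement GTCTG occurred in all 3 windows printed. It started 181 bases before the start of Col7a1, 103 before that of Col8a1 and 134 before that of Col11a1. CCAAT, as ATTGG, occurred in Col7a1 (249 bases before the start) and Col11a1 (79 bases before). Neither TGANTCA nor TATAAA was found in these windows. The windows of Col4a1 and Col4a4, which also passed in that comparison, overlap annotated exons and were not printed. Neither of them holds CAGAC or GTCTG. Col14a1 and Col26a1, the remaining members that passed, had no RefSeq entry. Such short words are common: CAGAC occurred in 42.2% of all 32817 windows of the same length and in 17 of the 38 windows of the 35 collagen genes with a RefSeq entry. CCAAT occurred in 33.8% of all windows and 13 of the 38, TATAAA in 12.4% and 5, and TGANTCA in 6.75% and 1.

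Levels per kilobase of exon allow the chains to be compared with each other within control muscle. The pair Col4a1 and Col4a2, whose chains combine into the common form of type IV collagen, stood highest in control gastrocnemius at 23.9 ± 3.03 and 20.5 ± 1.77 CPM per kb (SD, n = 4). The type I chains Col1a1 and Col1a2 followed at 17 ± 2.75 and 14.2 ± 2.99, then Col6a1 of the beaded type VI filament at 11.8 ± 0.448 and Col3a1 of type III at 9.68 ± 1.37. The ranges over libraries overlapped for Col4a1 and Col4a2, and for each of them and Col1a1. They also overlapped for Col1a1 and Col1a2, and for Col1a2 and each of Col6a1 and Col3a1. Within a library the paired chains of type IV and of type I kept their proportion. Over all 16 gastrocnemius libraries, the ratio per kb of Col4a1 to Col4a2 was 1.05 to 1.26. That of Col1a2 to Col1a1 was 0.705 to 0.906. These ratios do not give the order of type IV against type I chains. Below them came Col6a2 at 5.12 ± 0.318, Col15a1 at 3.41 ± 1.02 and Col7a1 at 3.23 ± 0.253 CPM per kb. The ranges of Col15a1 and Col7a1 overlapped. The plot of levels per length shows the members with the highest gastrocnemius means, in both control muscles.

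**Figure D1:**
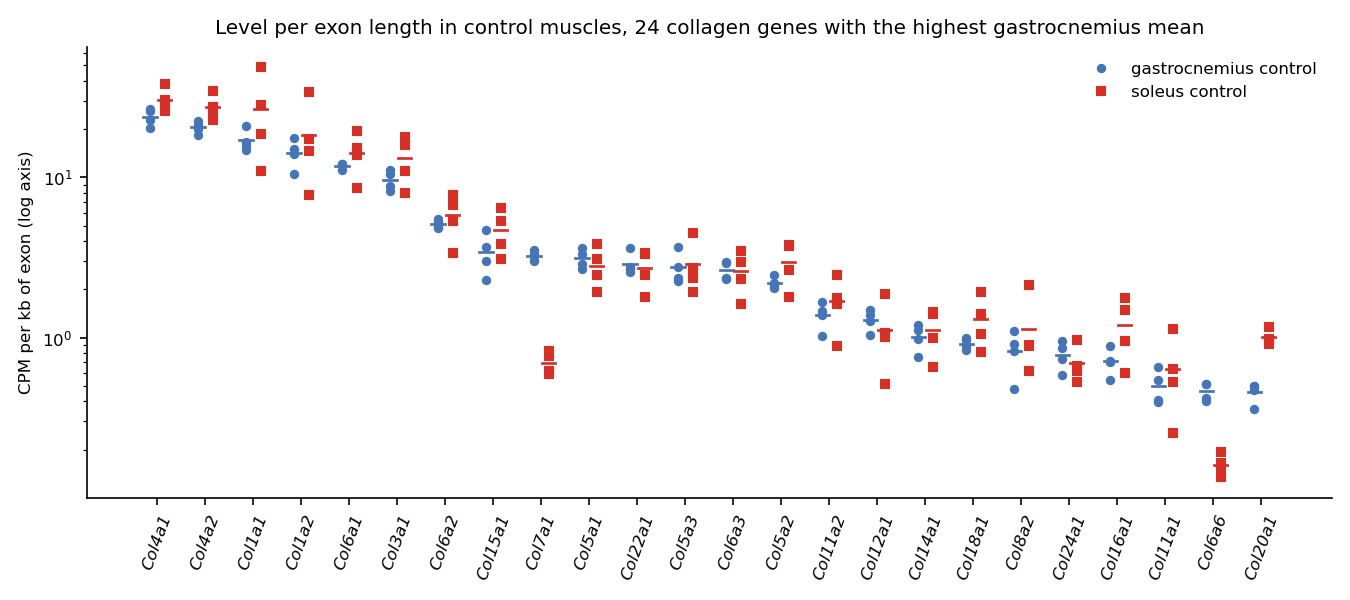
Level of the collagen genes with the highest gastrocnemius means, in control muscle, in CPM per kilobase of exon on a log axis. There is 1 point per library, coloured by muscle, and genes are sorted by gastrocnemius mean. Col4a1 and Col4a2 have the highest means in both muscles, at 23.9 and 20.5 CPM per kb in gastrocnemius and 30.4 and 27.4 in soleus.

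The same 8 chains had the highest means in control soleus, from Col4a1 at 30.4 ± 5.62 and Col4a2 at 27.4 ± 5.27 CPM per kb to Col15a1 at 4.68 ± 1.51. The spread was wider for the fibrillar chains, with Col1a1 at 26.6 ± 16.2 CPM per kb. The order of Col4a2 and Col1a1 was not settled: in soleus control 1 Col1a1 reached 48.4 CPM per kb, above both type IV chains (27.1 and 24.7), and without soleus control 2 its mean was 31.8 against 28.9 for Col4a2. It also passed Col4a2 without control 3 (26.02 against 24.9) or control 4 (29.3 against 27.4). Col7a1 ranked 9 among the 44 in control gastrocnemius and 23 in control soleus. Over the 16 gastrocnemius libraries, basement membrane chains made up a median of 32.5% of the summed collagen level per kb (26.5 to 38.9), fibrillar chains 38.9% (33.4 to 46.1) and the other chains 27.8% (24.6 to 34.6). In soleus the medians were 32.5%, 42.7% and 24.7%, and the fibrillar share ran from 17.4% to 52.2%.

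Not every member was measured well enough to test. The filter on low counts kept 38 members in gastrocnemius and 39 in soleus, and 41 where both muscles were fitted together; all 11 fibrillar and all 6 basement membrane chains passed each time. Col6a4 of type VI, Col10a1 of growth plate cartilage and Col17a1, a transmembrane chain of skin hemidesmosomes, passed in no fit. Col9a2, Col9a3 and Col6a5 also failed in gastrocnemius and Col9a1 and Col19a1 in soleus. Col26a1 was the only member with fractional counts, from reads that map to several places, in 16 or more of the 32 libraries, so its values are less certain than those of the others.

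Control soleus was compared with control gastrocnemius to see which collagen chains differ between a slow and a fast muscle without knockout. Passing is an adjusted p under 0.05 in edgeR's quasi-likelihood test, with Benjamini-Hochberg adjustment over all genes tested. In soleus 9 members were higher and 5 were lower, which is 14 of 41, or 34.1%, against 40.4% of the 18726 genes tested. The 5 include Col9a1 and Col19a1, which passed the filter on low counts in gastrocnemius but not in soleus alone. Of all genes tested, 3837 were higher and 3736 were lower. The median log2 fold change was 0.36 for the collagens, with 0.37 for fibrillar, -0.07 for basement membrane and 0.38 for other chains, and 0.07 for all genes. The share of members that passed was thus no higher than the background. The share of all genes without overlapping libraries was not computed for this comparison. Lack of overlap below therefore describes single genes and is not read as a result about the collagens.

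Col7a1 forms the anchoring fibrils that tie the basement membrane of skin to the dermis, and lies at chr9:108953586-108984875 on build GRCm38. It was 31.5, 30.8, 36.4 and 34.3 CPM in the control gastrocnemius libraries and 6.32, 7.84, 8.46 and 6.11 in control soleus. The groups were far apart, with a log2 fold change of -2.21 ± 0.17 (SE, adjusted p = 1.46e-11), the smallest adjusted p of the 41 members.

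Other chains that were lower in soleus sit on fibrils or belong to minor networks. Col19a1 and Col9a1, fibril-associated (FACIT) chains that are neighbours on chromosome 1 (24261890 to 24587472 and 24177610 to 24252684), were both lower. Col19a1 was 0.772, 0.304, 0.878 and 0.258 CPM in control gastrocnemius and 0.0516, 0.0300, 0.0507 and 0 in control soleus (log2 fold change -3.90 ± 0.63, adjusted p = 1.19e-05). Col9a1, part of the type IX collagen of cartilage, was 0.825, 0.664, 1.79 and 1.03 CPM against 0, 0.421, 0.101 and 0.0259 (-3.01 ± 0.74, adjusted p = 0.0017). Neither gene had overlapping libraries, but both rest on few reads. Both failed the filter on low counts in soleus alone and passed it in gastrocnemius, the muscle where they are higher. The filter thus favoured this direction, and the lack of overlap adds no support to it. Col6a6, a long chain of type VI collagen, was 4.69, 3.71, 4.68 and 3.87 CPM in gastrocnemius and 1.52, 1.23, 1.39 and 1.76 in soleus (-1.51 ± 0.27, adjusted p = 5.25e-05), again without overlap.

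Basement membrane chains differed from each other in direction. Col4a4 of the kidney and lung type network was lower in soleus, at 1.57, 1.47, 1.34 and 1.76 CPM against 2.37, 3.15, 3.11 and 2.71 (log2 fold change -0.88 ± 0.24, adjusted p = 0.0046). Col4a5, the X-linked chain mutated in Alport syndrome, was higher at 3.97, 2.43, 3.29 and 3.08 CPM against 2.05, 1.83, 1.79 and 1.76 (0.78 ± 0.16, adjusted p = 2.09e-04). Col4a2 rose from 121, 149, 140 and 133 CPM to 163, 150, 230 and 181 (0.42 ± 0.15, adjusted p = 0.0230). None of these 3 had overlapping libraries. Col4a1, at 151, 195, 200 and 170 CPM in gastrocnemius and 202, 192, 286 and 227 in soleus, did not pass (0.35 ± 0.15, adjusted p = 0.0627) unless the animal was kept as a block (adjusted p = 0.0121). The Col4a2 call was lost without gastrocnemius control 1 or soleus control 3, with an adjusted p of up to 0.145.

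Of the fibrillar chains, Col2a1 and Col27a1 were higher in soleus. Col2a1, the main collagen of cartilage, was 0.160, 0.498, 0.110 and 0.413 CPM in gastrocnemius and 1.78, 0.541, 1.04 and 0.958 in soleus (log2 fold change 1.83 ± 0.48, adjusted p = 0.0028), with all soleus libraries above all gastrocnemius libraries. Col27a1, another cartilage chain, was 1.36, 0.692, 0.878 and 0.568 CPM against 1.39, 1.11, 2.23 and 1.19 (0.76 ± 0.26, adjusted p = 0.0186), with overlap; the call was lost with only the compared groups and without gastrocnemius control 2 or 4 or soleus control 3 (adjusted p up to 0.143). The abundant chains Col1a1, Col1a2 and Col3a1 had higher means in soleus (175 against 112, 228 against 177 and 129 against 95.1 CPM) but overlapped, and the adjusted p-values were 0.207, 0.467 and 0.253.

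Among the other types, the transmembrane chain Col23a1 had the lowest adjusted p of those that were higher. It went from 1.17, 1.44, 1.54 and 2.09 CPM to 4.41, 5.02, 5.17 and 5.21 (log2 fold change 1.66 ± 0.22, adjusted p = 5.17e-07). Col20a1, a FACIT chain, went from 1.84, 2.41, 2.56 and 2.58 to 4.72, 5.05, 6.03 and 4.95 CPM (1.15 ± 0.22, adjusted p = 1.15e-04). Col26a1, a short collagen of reproductive tissue, went from 0.160, 0.277, 0.293 and 0.336 to 1.26, 0.661, 1.14 and 0.881 CPM (1.89 ± 0.33, adjusted p = 3.58e-05). These 3 genes had no overlapping libraries. Col8a1, a short-chain collagen of vessel walls, and Col16a1, a FACIT chain, were higher with overlap. Col8a1 was 3.81, 2.6, 3.33 and 3.67 CPM against 10.6, 3.36, 9.81 and 5.70 in soleus (1.14 ± 0.32, adjusted p = 0.0058). Col16a1 was 3.65, 6.00, 4.79 and 4.72 CPM against 12.002, 4.06, 10.03 and 6.45 (0.77 ± 0.28, adjusted p = 0.0293). In both genes soleus control 2 was the low library. The Col16a1 call was lost in 8 of 14 alternatives, namely no filter, only the compared groups, the animal as a block (adjusted p = 0.0668), and without gastrocnemius control 1, 3 or 4 or soleus control 1 or 3 (adjusted p up to 0.162).

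**Figure D2:**
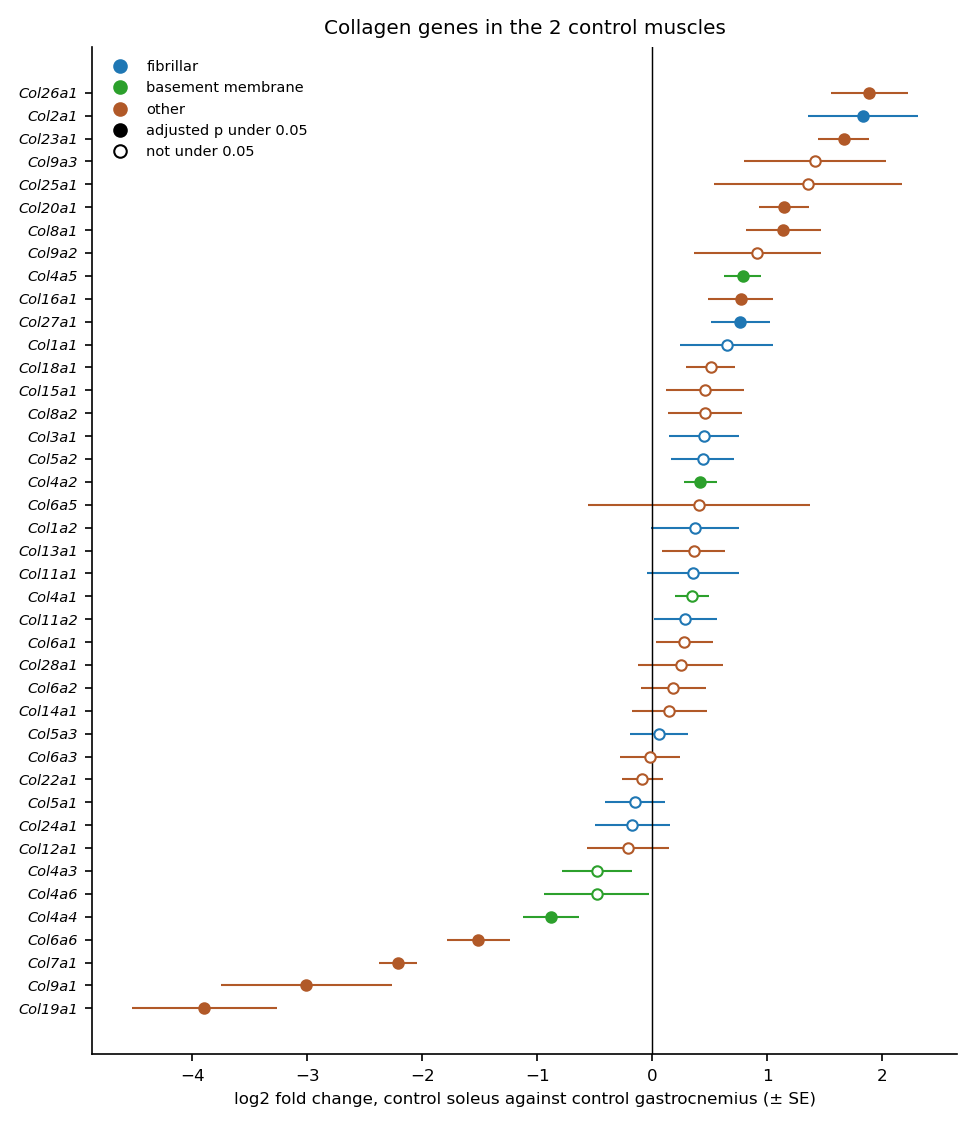
Log2 fold change of control soleus against control gastrocnemius for the 41 collagen genes tested, with bars of 1 standard error. Genes are sorted by fold change and coloured by class, and filled points mark those that passed. Of the filled points, 9 lie on the side of higher soleus levels and 5 on the side of lower levels.

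Markers of other cell types moved between the control muscles as well, and their part in these differences was not tested. Among all genes tested, 40.4% passed between these muscles. Of the endothelial markers 7 of 9 were higher in soleus, with summed levels of 513 to 721 CPM against 344 to 367 in gastrocnemius. Of the tendon and cartilage markers 1 of 9 tested was higher (Scx, 4.58 against 1.91 CPM) and 1 was lower (Kera, 5.01 against 12.4), with sums of 245 to 902 CPM in soleus and 349 to 496 in gastrocnemius. Of the adipocyte markers 5 of 6 were higher, with a median log2 fold change of 1.83 and sums of 33.5 to 104 CPM in soleus against 43.5 to 57.6. Of the pericyte and smooth muscle markers 4 of 8 were higher and 1 was lower, with a median of 0.58. With the animal as a block, which pairs the muscles of 1 mouse, 17 members passed, 11 higher and 6 lower, which is 17 of 41 against 45.6% of all genes, among them Col15a1, Col25a1 and Col4a1 (higher) and Col4a3 (lower).

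Double KO gastrocnemius was compared with control gastrocnemius to see which chains differ where both receptor genes are targeted. Of 38 members tested, 4 rose (Col7a1, Col8a1, Col14a1 and Col26a1) and 3 fell (Col4a1, Col4a4 and Col11a1). That is 18.4% of the members, near the 20.9% of the 17536 genes that passed (11.4% higher, 9.59% lower). By class, 1 of 11 fibrillar chains, 2 of 6 basement membrane chains and 4 of 21 other chains passed. The median log2 fold change was -0.13 for fibrillar, -0.46 for basement membrane and 0.11 for other chains, against 0.00 for all genes. In 5 members, Col7a1, Col14a1, Col26a1, Col4a4 and Col6a6, the 4 double KO libraries did not overlap the 4 controls. Of all genes tested, 21.3% had no overlap.

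Col7a1 was 31.5, 30.8, 36.4 and 34.3 CPM in control and 51.0, 66.4, 68.7 and 75.5 in double KO gastrocnemius. Every double KO library lay above every control, at 65.4 ± 10.3 against 33.2 ± 2.6 CPM (SD, n = 4). The fold change was 1.98 (log2 0.99 ± 0.10, SE, adjusted p = 4.16e-06), and it passed under every alternative setting tried. Per kilobase, double KO gastrocnemius held 6.36 ± 1.00 CPM of Col7a1, above the 5.12 of Col6a2 in control.

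Col8a1 (chr16:57624258-57754737), the chain of a short network in vessel walls, was 3.81, 2.6, 3.33 and 3.67 CPM in control and 3.79, 8.84, 7.11 and 6.99 in double KO gastrocnemius. Double KO 1 lay within the control range and the other 3 were well above it (log2 fold change 1.01 ± 0.21, adjusted p = 0.0028). Without the libraries that stand apart, of which double KO 1 is one, the log2 fold change was 1.26 ± 0.16. Col14a1 (chr15:55307750-55520803), a FACIT chain that binds type I fibrils through decorin, was 6.92, 8.38, 7.87 and 5.29 CPM in control and 10.9, 12.5, 11.2 and 13.3 in double KO. These groups did not overlap (0.77 ± 0.15, adjusted p = 0.0014). Col26a1 was 0.160, 0.277, 0.293 and 0.336 CPM in control and 1.08, 0.852, 0.505 and 0.889 in double KO, the highest fold among the members at 3.12 (1.64 ± 0.35, adjusted p = 0.0035). It rests on 2 to 35 counts per gastrocnemius library.

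**Figure D3:**
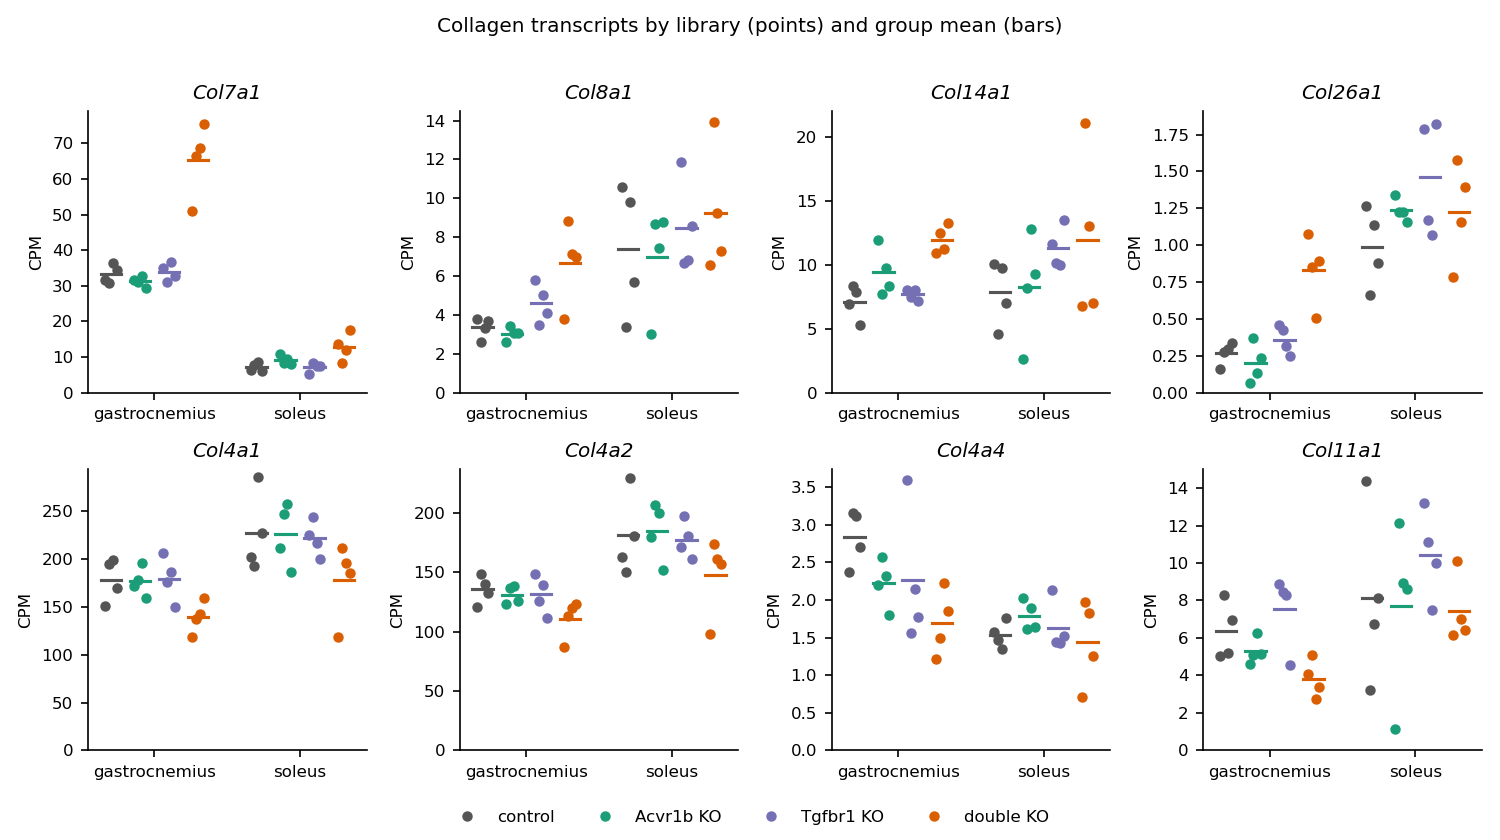
CPM of Col7a1, Col8a1, Col14a1, Col26a1, Col4a1, Col4a2, Col4a4 and Col11a1 in each of the 32 libraries, by genotype and muscle. Axes are linear, with 1 point per library and a bar at the group mean. Col7a1 stands at 51.0 to 75.5 CPM in double KO gastrocnemius and at 29.5 to 36.7 in the other 3 genotypes, and is lower in soleus throughout.

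Both chains of the common type IV collagen had lower means in double KO gastrocnemius. Col4a1 (chr8:11198423-11312826) was 151, 195, 200 and 170 CPM in control and 118, 137, 142 and 160 in double KO, with only double KO 4 inside the control range. Its log2 fold change was -0.35 ± 0.11 (adjusted p = 0.0394). Col4a2, which starts head to head with Col4a1 at chr8:11312805-11449287, was 121, 149, 140 and 133 CPM against 87.4, 113, 120 and 124, and did not pass (-0.28 ± 0.11, adjusted p = 0.0760). Their ratio per kb was 1.11 to 1.26 in control and 1.05 to 1.20 in double KO, with overlap. Double KO 3 and double KO 2 had the lowest ratios of all 16 gastrocnemius libraries.

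The minor type IV chain Col4a4 (chr1:82448423-82586849) was 2.37, 3.15, 3.11 and 2.71 CPM in control and 1.21, 1.498, 2.22 and 1.85 in double KO, without overlap (log2 fold change -0.72 ± 0.23, adjusted p = 0.0346). Its neighbour and partner Col4a3 had a mean of 1.55 against 2.34 CPM (-0.57 ± 0.27, adjusted p = 0.143), and Col4a6 0.179 against 0.314 (-0.82 ± 0.38, adjusted p = 0.146). Col4a5 was the only one of the 6 with a higher mean, at 2.17 against 1.86 CPM. The Col4a1 call was lost when double KO 1, 2 or 3 or control 2 or 3 was left out, or when only the compared groups were fitted (adjusted p up to 0.111). For Col4a4, leaving out any of double KO 1, 2 and 4 or of control 2, 3 and 4 ended the call, with adjusted p-values of up to 0.0843.

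Among fibrillar chains only Col11a1 (chr3:114030540-114220718), a regulatory chain in the core of thin fibrils, passed. It was 5.03, 8.30, 5.20 and 6.97 CPM in control and 4.05, 5.08, 2.72 and 3.40 in double KO gastrocnemius, where double KO 2 just overlapped control 1 (log2 fold change -0.73 ± 0.22, adjusted p = 0.0275). Leaving out any of double KO 3 and 4 or of control 2 and 4 ended this call, as did a fit of only the compared groups, with adjusted p-values of up to 0.0955. The main fibril chains did not pass, although Col1a2 did without the libraries that stand apart (-0.46 ± 0.16, adjusted p = 0.0466). Col1a1 was 97, 138, 103 and 109 CPM in control and 119, 104, 86.8 and 77.9 in double KO (-0.19 ± 0.20, 95% interval -0.58 to 0.20, adjusted p = 0.544).

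Col1a2 was 129, 219, 173 and 186 CPM in control and 176, 161, 140 and 116 in double KO (log2 fold change -0.24 ± 0.19, adjusted p = 0.419), and Col3a1 was 109, 87.2, 104 and 80.4 against 84.9, 81.9, 91.1 and 86.5 (-0.13 ± 0.15, adjusted p = 0.570). All these groups overlapped. The interval for Col3a1, -0.43 to 0.16, leaves out a fall or a rise of 1 log2 unit. Col24a1, a fibrillar chain of bone and cornea, was 7.21, 6.58, 4.46 and 5.601 CPM in control and 2.98, 10.6, 8.88 and 12.1 in double KO, where double KO 1 was the lowest of the 8 libraries and the other 3 were the highest (0.54 ± 0.30, adjusted p = 0.218).

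The type VI chains, which link the basement membrane to the surrounding matrix, were close to control, except for Col6a6. Col6a1 was 52.8, 52.7, 48.7 and 52.1 CPM in control and 39.3, 53.1, 54.2 and 49.7 in double KO (log2 fold change -0.06 ± 0.12, 95% interval -0.29 to 0.17). Col6a2 was 46.0, 40.7, 43.5 and 40.4 against 30.7, 50.1, 45.9 and 44.9 (0.02 ± 0.16), and Col6a3 was 35.3, 28.3, 34.98 and 27.8 against 31.7, 36.96, 29.7 and 32.3 (0.06 ± 0.16). Double KO 1 was the lowest library for Col6a1 and Col6a2. Col6a6 was 4.69, 3.71, 4.68 and 3.87 CPM in control and 3.20, 2.59, 2.32 and 2.34 in double KO. Its groups did not overlap but it did not pass (-0.69 ± 0.25, adjusted p = 0.0628), except with DESeq2 (adjusted p = 0.0354), with only the compared groups (0.0187) and without the libraries that stand apart.

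Col15a1, the multiplexin that stabilizes the fibre basement membrane, lies 40.1 kb from the floxed Tgfbr1 gene on chromosome 4. It was 23.5, 19.03, 29.7 and 14.5 CPM in control and 12.5, 33.6, 28.6 and 28.1 in double KO (log2 fold change 0.26 ± 0.29, adjusted p = 0.564), with double KO 1 lowest of the 8. In Tgfbr1 KO it was 35.04, 17.7, 29.6 and 24.1 (0.29 ± 0.29, adjusted p = 0.977). Col12a1, a FACIT chain of tendon and fascia, was 15.9, 22.6, 19.2 and 21.1 CPM in control and 15.99, 14.3, 14.03 and 11.99 in double KO (-0.47 ± 0.17, adjusted p = 0.0618). It passed with DESeq2 (adjusted p = 0.0406), with only the compared groups (0.0383) and without the libraries that stand apart. Only double KO 1 reached the control range. Col22a1, a chain of the muscle to tendon junction, showed means of 27.8 against 26.7 CPM (0.07 ± 0.14).

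**Figure D4:**
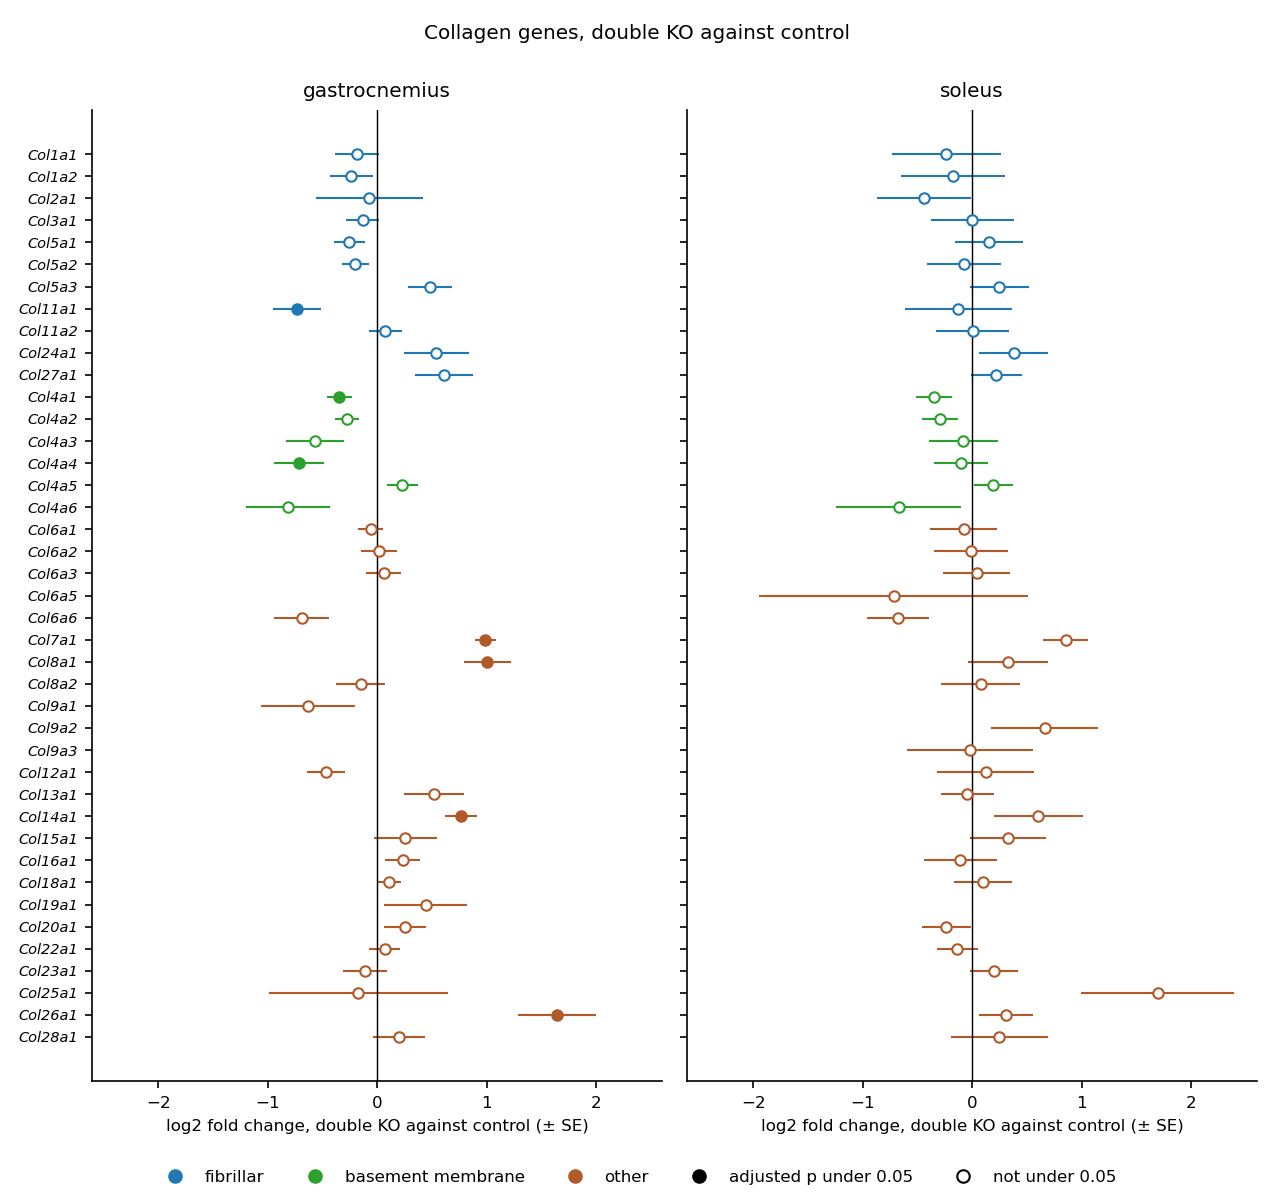
Log2 fold change of double KO against control for the collagen genes tested in each muscle, with bars of 1 standard error, grouped by class and with filled points for genes that passed. In gastrocnemius 4 genes lie above 0 and 3 below 0 as filled points, and no gene is filled in soleus.

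The libraries that stand apart weighed on these counts. Without gastrocnemius control 1, Tgfbr1 KO 1 and double KO 1, 14 of 38 members passed, 6 higher and 8 lower, against 26.2% of all genes. The 7 calls above remained, and Col24a1 (log2 fold change 0.92 ± 0.21) and Col27a1 (0.87 ± 0.23) joined those that rose. Col4a2 (-0.23 ± 0.08), Col1a2 (-0.46 ± 0.16), Col12a1 (-0.64 ± 0.19), Col6a6 (-0.75 ± 0.21) and Col4a6 (-1.34 ± 0.39) joined those that fell. Without control 2 only the 4 genes that rose passed, and the share of all genes without that library is not given here.

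The 2 single knockouts had no such calls. In Acvr1b KO gastrocnemius 0 of 38 members passed, against 0.0285% of all genes, and in Tgfbr1 KO gastrocnemius 0 of 38, against 0.171%. At an unadjusted p under 0.05, edgeR gave 2 members in each, against 4.42% and 6.00% of all genes, and DESeq2 called 0 in each. Col7a1 was 31.6, 31.1, 32.8 and 29.5 CPM in Acvr1b KO and 35.04, 30.9, 36.7 and 32.8 in Tgfbr1 KO. All were inside the control range except Acvr1b KO 4, just below it, and Tgfbr1 KO 3, just above it. The 2 members with the lowest p in Acvr1b KO were Col28a1 (log2 fold change -0.72 ± 0.26) and Col14a1 (0.41 ± 0.15), both with an adjusted p of 0.976.

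Departure from additivity asks whether the double KO change exceeds the sum of both single knockout changes on the log2 scale. Of 38 members 1 passed, Col7a1, against 2.14% of all genes. Its departure was 1.05 ± 0.14 on the log2 scale (adjusted p = 6.70e-04), which nearly equals its whole double KO change, since the single knockouts moved it by -0.09 ± 0.10 and 0.02 ± 0.10. Without the libraries that stand apart, Col8a1 passed as well. The departures for Col26a1 (1.63 ± 0.56, adjusted p = 0.154) and Col28a1 (1.21 ± 0.36, adjusted p = 0.0941) did not pass.

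Double KO gastrocnemius was also set against each single knockout; these comparisons share the double KO libraries with each other and with the comparison against control. Against Acvr1b KO, 4 of 38 members passed and all were higher, against 16.3% of all genes. Col7a1 (log2 fold change 1.07 ± 0.10, adjusted p = 2.82e-06), Col8a1 (1.15 ± 0.21, adjusted p = 0.0014) and Col26a1 (2.03 ± 0.37, adjusted p = 0.0013) were joined by Col28a1, a chain known from peripheral nerve. Col28a1 was 0.251, 0.526, 0.676 and 0.620 CPM in Acvr1b KO and 1.01, 1.12, 0.833 and 0.991 in double KO, without overlap (0.92 ± 0.25, adjusted p = 0.0186). Its control libraries, at 0.932, 0.802, 0.988 and 0.749, lay near the double KO libraries. The count rose to 7 with DESeq2 or with only the compared groups, through Col5a3, Col4a1 and Col6a6, and to 9 without the libraries that stand apart. The shares of all genes under these settings are not given here, so the larger counts are not read as a result about the collagens. The Col28a1 call was lost without double KO 2 (adjusted p = 0.0508).

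Against Tgfbr1 KO, 6 of 38 members passed, 4 higher and 2 lower, against 12.9% of all genes. Col7a1 (log2 fold change 0.96 ± 0.10, adjusted p = 1.11e-05), Col14a1 (0.66 ± 0.15, adjusted p = 0.0075) and Col26a1 (1.24 ± 0.35, adjusted p = 0.0271) were higher. Col11a1 was 8.89, 8.46, 8.29 and 4.57 CPM in Tgfbr1 KO, with 3 of 4 above every double KO library (-0.96 ± 0.22, adjusted p = 0.0095). Col4a5 was 1.57, 1.54, 1.68 and 1.58 CPM in Tgfbr1 KO and 2.68, 1.88, 1.99 and 2.11 in double KO (0.46 ± 0.14, adjusted p = 0.0454). Col4a1 was 206, 176, 187 and 150 CPM in Tgfbr1 KO (-0.36 ± 0.11, adjusted p = 0.0493).

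These last calls were near the threshold. Without Tgfbr1 KO 3, 3 members passed, and the share of all genes without that library is not given here. Of 14 alternatives, Col4a5 lost its call in 12 and Col4a1 in 10. Col26a1 lost its call in 5, namely without double KO 1, 2 or 4 or Tgfbr1 KO 3 or 4 (adjusted p up to 0.0847).

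In soleus no collagen gene passed in any comparison between genotypes. For double KO against control the count was 0 of 39, against 0.722% of the 18143 genes tested. At an unadjusted p under 0.05, edgeR gave 4 members, against 12.2% of all genes, and DESeq2 called 1, Col7a1. The share of all genes that DESeq2 called is not given here, so its count is not read as a result about the collagens. Col7a1 was 6.32, 7.84, 8.46 and 6.11 CPM in control soleus and 13.7, 8.40, 11.9 and 17.5 in double KO soleus. The means were 7.19 ± 1.15 and 12.9 ± 3.80 CPM (SD, n = 4), and double KO 2 alone lay within the control range. The log2 fold change was 0.85 ± 0.21 (adjusted p = 0.0725 with edgeR, 0.0083 with DESeq2), and edgeR also called it without soleus double KO 2.

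The other soleus members with a low p behaved less evenly. Col6a6 was 1.52, 1.23, 1.39 and 1.76 CPM in control and 0.651, 1.18, 1.159 and 0.711 in double KO, without overlap (log2 fold change -0.67 ± 0.28, adjusted p = 0.339). Col4a1 was 202, 192, 286 and 227 CPM in control and 119, 211, 196 and 186 in double KO, where double KO 1 was far below the rest (-0.35 ± 0.16, adjusted p = 0.408). Col25a1, a transmembrane chain known for its role in motor innervation, stood at 4.23 CPM in double KO 1 and at 0.285 to 0.817 in the other 3 double KO libraries (1.69 ± 0.70, adjusted p = 0.337).

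Of the other genes called in gastrocnemius, Col4a1 had nearly the same log2 fold change in soleus, as given above. The rest were less uniform in soleus. The log2 fold change of double KO against control in soleus was 0.33 for Col8a1 (95% interval -0.39 to 1.04), 0.61 for Col14a1 (-0.19 to 1.40), 0.31 for Col26a1 (-0.18 to 0.79), -0.13 for Col11a1 (-1.08 to 0.83) and -0.10 for Col4a4 (-0.58 to 0.38). The intervals of Col8a1, Col14a1 and Col11a1 hold the gastrocnemius values, while those of Col26a1 and Col4a4 leave them out. The gastrocnemius values have errors of their own, such as -0.72 ± 0.23 for Col4a4, so this does not test a difference between the muscles. Col8a1 was 10.6, 3.36, 9.81 and 5.70 CPM in control soleus and 6.58, 13.9, 9.22 and 7.28 in double KO soleus. These groups overlapped in part, with double KO 2 above every control and controls 2 and 4 below every double KO library. Whether the double KO change differed between the muscles was tested as an interaction, and 0 of 41 members passed, against 0.732% of all genes; edgeR gave 1 at an unadjusted p under 0.05, against 8.82% of all genes, and DESeq2 called 0. That member was Col26a1, with a difference of -1.32 ± 0.44 on the log2 scale (adjusted p = 0.226). For Col7a1 the difference was -0.13 ± 0.23 (95% interval -0.58 to 0.31), so a muscle difference of 1 log2 unit lies outside the interval.

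The remaining soleus counts were 0 as well. They were 0 of 39 for Acvr1b KO (0.0220% of all genes), for Tgfbr1 KO (0.0496%), for double KO against Acvr1b KO (0.127%), for double KO against Tgfbr1 KO (0.0496%) and for departure from additivity (0%). At an unadjusted p under 0.05, edgeR gave 0, 1, 3, 4 and 2 members in that order, against 1.95%, 2.26%, 11.2%, 9.13% and 3.38% of all genes. DESeq2 called Col7a1 in double KO against Tgfbr1 KO and no member in the other 4 comparisons, and its shares of all genes are not given here.

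Fibrillar and interstitial chains varied widely among soleus libraries of 1 genotype. Col1a1 was 318, 72.2, 186 and 122 CPM in control and 26.6, 266, 196 and 168 in Acvr1b KO soleus. Its Tgfbr1 KO libraries held 169, 233, 153 and 199 CPM, and those of double KO held 138, 209, 136 and 106. The highest library was 11.9 times the lowest over the 16, against 2.65 times in gastrocnemius. Soleus Acvr1b KO 1 was lowest, followed by soleus control 2. Col1a2 ran from 38.3 to 420 CPM, Col11a1 from 1.14 to 14.4 and Col12a1 from 2.85 to 28.3, each with Acvr1b KO 1 lowest and control 1 highest. Col3a1 in Acvr1b KO was 32.95, 181, 145 and 125 CPM, and Col6a1 was 20.3, 75.5, 67.1 and 60.2.

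The type I chains nevertheless kept their proportion. The ratio of Col1a2 to Col1a1 per kb stayed between 0.615 and 0.809 over the 16 soleus libraries and between 0.705 and 0.906 over the 16 gastrocnemius libraries. Basement membrane chains did not share the low values of Acvr1b KO 1, where Col4a1 was 212 CPM, inside the 187 to 257 of its group. Type IV chains made up 61.9% of the summed collagen level per kb in that library, and fibrillar chains 17.4%.

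**Figure D5:**
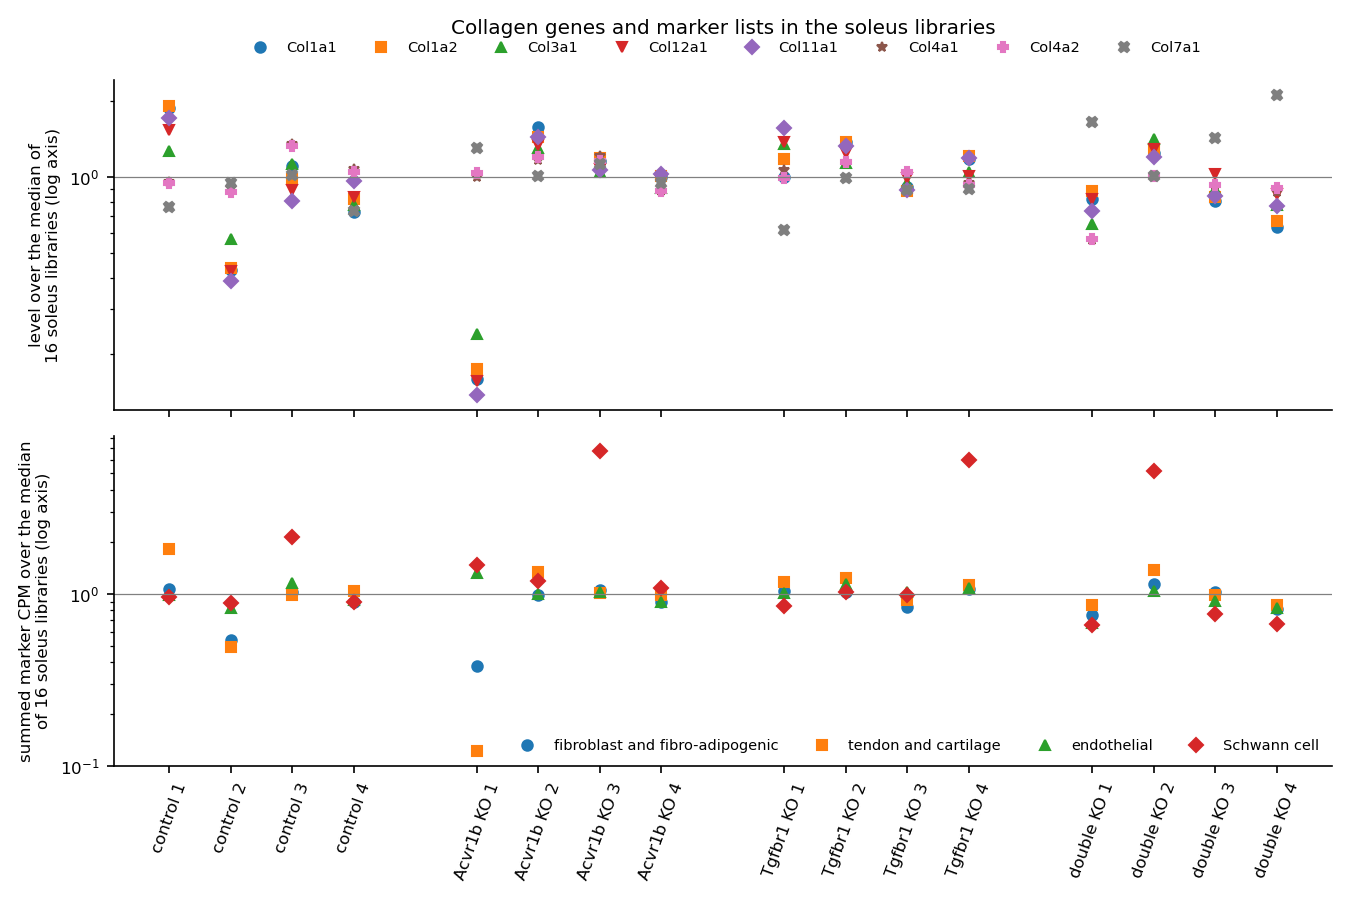
Level of Col1a1, Col1a2, Col3a1, Col11a1, Col12a1, Col4a1, Col4a2 and Col7a1 over the median of the 16 soleus libraries, on a log axis. Libraries are in order of genotype and replicate, and a lower panel shows summed marker levels in the same way. Col1a1, Col1a2 and Col3a1 drop together in Acvr1b KO 1 and in control 2. Col1a1 is 26.6 and 72.2 CPM there, while Col4a1 is 212 and 192 CPM.

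Tendon and fibroblast markers moved with these libraries. The summed tendon and cartilage markers were 902, 245, 485 and 517 CPM in control soleus and 60.6, 666, 503 and 487 in Acvr1b KO, and the fibroblast markers 1236, 624, 1184 and 1031 and 438, 1138, 1211 and 1036. The same 2 libraries were lowest in both lists, and the endothelial markers of Acvr1b KO 1 were the highest of all soleus libraries at 819 CPM. The part of tissue composition in the collagen spread was not tested. The highest sums of Schwann cell markers in each genotype were 226 CPM for control 3, 716 for Acvr1b KO 3, 634 for Tgfbr1 KO 4 and 547 for double KO 2. Col28a1 in those libraries was 1.75, 1.48, 1.99 and 1.41 CPM, the highest of its group in the first 3, and double KO 1 was higher at 1.69.

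Replicate 1 of double KO gave both a gastrocnemius and a soleus library, and both were low for some genes, which were picked out after their values were seen. The share of all members or of all genes for which it was lowest is not given. The pattern is therefore not read as a result about the collagens. In gastrocnemius replicate 1 was the lowest of its group for Col4a1, Col4a2, Col4a3, Col4a4, Col7a1, Col8a1, Col15a1 and Col24a1. It was also the lowest there for Col6a1 and Col6a2, but the highest for Col1a1, Col1a2, Col4a5 and Col26a1. In soleus it was the lowest of its group for the genes named first, all but Col7a1. Examples are Col15a1 at 11.7 CPM against 40.1 to 55.4 and Col4a2 at 98.4 against 157 to 174. Myofibre markers of replicate 1 summed to 39511 CPM in soleus, against 60376 to 71724 in the other 3 double KO libraries.

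Genes that make, process and bind collagen were read from lists of related genes. Among all genes tested, 11.4% rose and 9.59% fell in double KO against control gastrocnemius. In double KO against control gastrocnemius, 0 rose and 3 fell of 21 genes for chain folding and modification, namely P3h4 (log2 fold change -0.70), Plod2 (-0.63), a lysyl hydroxylase, and P4ha2 (-0.56), a prolyl hydroxylase subunit. Levels of P4ha2 went from 28.4 ± 1.97 to 19.1 ± 1.155 CPM (adjusted p = 4.83e-04). Of 12 genes for propeptide removal and crosslinking, 2 rose, the lysyl oxidases Loxl1 (0.78) and Loxl3 (0.53), and 1 fell, the procollagen protease Adamts3 (-1.12). Of 12 for degradation and its inhibitors, 4 rose, among them Timp1 (0.99), a protease inhibitor, and Fap (0.63), a fibroblast protease, and 2 fell, the gelatinase Mmp9 (-1.05) and the inhibitor Timp3 (-0.47). The list medians were 0.06, -0.20 and 0.25, against 0.00 for all genes.

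Of 8 collagen receptors 2 rose, Lair1 (log2 fold change 1.33), an inhibitory receptor of leukocytes, and Ddr1 (0.65), a receptor tyrosine kinase, and 1 fell, the integrin subunit Itga2 (-0.98). Of 18 matrix partners 3 rose, the proteoglycans Lum (1.05) and Bgn (0.93) and the collagen-tailed anchor of acetylcholinesterase Colq (0.60), and 2 fell, among them Sparc (-0.29), a collagen-binding protein. Of 10 TGF-beta responsive matrix genes, 4 rose and 1 fell. Ltbp2 (1.53), Tgfbi (0.83) and Postn (0.69) rose and Tnc (-0.55) fell, so members of this list went both ways. The medians of these 3 lists were 0.13, 0.14 and 0.07. The background was the same, with 11.4% of all genes higher and 9.59% lower.

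In soleus, where 0.722% of all genes passed, double KO left all but 1 of these lists without a call. Of 21 folding genes 2 fell, Plod2 from 7.67 ± 1.99 to 3.49 ± 1.22 CPM (log2 fold change -1.14 ± 0.25, adjusted p = 0.0461) and P4ha2 from 30.4 ± 2.06 to 18.7 ± 1.61 (-0.69 ± 0.11, adjusted p = 0.0054). Both were also among the 3 folding genes that fell in gastrocnemius. Between the control muscles, where 40.4% of all genes passed, 9 of 21 folding genes were higher in soleus and 4 lower, led by P3h2 (2.42), a prolyl 3-hydroxylase, and Mia3 (-1.09), which loads collagen into transport carriers. Of the TGF-beta responsive genes 4 of 10 were higher in control soleus, led by Postn (2.52) and Ltbp2 (2.02).

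Cell type markers shifted with the double KO in gastrocnemius, and their part in the collagen changes was not tested. Among all genes tested, 11.4% rose and 9.59% fell. Of 10 fibroblast markers 5 rose and 0 fell, with summed levels of 1126 to 1289 CPM against 892 to 1111 in control, without overlap. Of 8 macrophage markers 5 rose and 0 fell, with sums of 64.0 to 105 against 50.4 to 59.2 CPM. Of 9 endothelial markers 4 fell and 0 rose, with sums of 264 to 296 against 344 to 367. Of 8 pericyte and smooth muscle markers 4 fell (464 to 587 against 581 to 763 CPM), and of 9 tendon and cartilage markers tested 2 fell, Kera (-1.19) and Chad (-0.67), with sums of 312 to 420 against 349 to 496.

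Myofibre markers fell in 6 of 8 and rose in 0, with sums of 114728 to 134105 CPM in double KO and 144520 to 174178 in control. Of 6 adipocyte markers 2 fell, of 6 satellite cell markers 1 rose and 1 fell, and of 8 Schwann cell markers 0 passed. In soleus none of the marker genes passed in double KO against control, where 0.722% of all genes passed.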

How the data were processed

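Whole left gastrocnemius medialis and soleus muscles were profiled by polyA RNA-seq in 32 libraries, 4 per genotype and muscle. The authors deposited estimated counts per gene: per the file headers, featureCounts 2.0.1 counted reads on the reverse strand (setting 2) over Ensembl 102 genes of GRCm38 and split multi-mapping reads into fractions. The submitters' processing notes also list cutadapt, HISAT2, FastQC 0.11.9 and DESeq2. Overlapping genes such as Col4a1 and Col4a2 are on opposite strands and are told apart by this setting.

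Counts were rounded. Symbols and positions came from GENCODE M21 (GRCm38), with all 55487 identifiers matched. Each muscle was fitted in edgeR 4.0.16 (R 4.3.3, limma 3.58.1) with the quasi-likelihood test, TMM factors, filterByExpr and one mean per genotype over its 16 libraries. Comparisons between muscles used all 32. P-values were 2-sided and adjusted by the Benjamini-Hochberg method over all genes tested (17536, 18143 and 18726), with a threshold of 0.05. Errors of log2 fold changes are standard errors from the F statistic, and intervals are 1.96 of them. Printed CPM use TMM factors over all 32 libraries, so that both muscles share a scale; overlap is judged on these CPM, and levels per kb divide them by the exon length in the table. Totals of 16535118 to 54456450 counts limit the precision of members with few counts.

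The gastrocnemius and soleus libraries of a mouse share its number in the labels. Deviations from the group means correlated at 0.034 to 0.579 within a mouse, with the own mouse best in 12 of 16 cases, and the animal as a block was an alternative.

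Every library is given for members that passed in some comparison and for abundant chains. Up to 4 passing genes of each related list are named, by size of change. Members and lists were chosen with earlier results of these data known. Alternatives were DESeq2 1.42.0, RLE size factors, no filter, only the compared groups, a replicate block, leaving out each library, and, chosen after seeing the data, leaving out the 5 libraries that stand apart. These have a root mean square deviation of 0.48 log2 units or more from their group. Promoter windows came from the RefSeq table of GRCm38.p6.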

Additional observations from a re-analysis of the deposited data

Results flagged for a closer look

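In groups of 4 libraries, the highest or lowest library was marked when its gap to the nearest other exceeded, as a share of the range of the group, Dixon's 95% critical value. Of 200 groups over 25 members, 6 were marked, and chance marks about 1 in 20, or 10 here.

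In soleus Tgfbr1 KO 1, Col4a4 stood at 2.13 CPM against 1.43 to 1.52 in the other 3 libraries. In soleus Tgfbr1 KO 3, Col6a1 was low at 60.1 CPM against 71.003 to 71.8, and Col9a1 was high at 0.267 against 0 to 0.0424. Soleus double KO 2 held 4.42 CPM of Col4a5 against 3.33 to 3.48. Gastrocnemius Tgfbr1 KO 4 held 4.57 CPM of Col11a1, where the other 3 libraries held 8.29 to 8.89, and this is the library that overlaps double KO in that comparison. Gastrocnemius Acvr1b KO 3 held 6.62 CPM of Col16a1 against 4.64 to 4.86.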

How the results depend on the processing

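In 9 of 14 comparisons no member passed at first. Of 77 recomputed counts for the other 5, 70 stayed within 1.5 times the original, and none of the named results changed sign. Of 32 results for a named member that passed, 22 kept their call under every alternative run, all those of Col7a1 among them. In gastrocnemius, double KO against control gave 7 members and, over the libraries left out in turn, 4 to 10, with 14 without the libraries that stand apart. Against Acvr1b KO, 4 members became 7 with DESeq2, 7 with only the compared groups and 9 without the libraries that stand apart (3 to 6 with 1 library left out). Against Tgfbr1 KO, 6 members ranged from 3 to 8. Departure from additivity gave 2 without the libraries that stand apart. In soleus, DESeq2 gave 1 member for double KO against control and 1 against Tgfbr1 KO, and leaving out single libraries gave 0 to 1 in the former. Most of these counts are given without the share of all genes under the same setting, which changes as well. They are therefore not read as results about the collagens. The cause of the shifts in count was not tested.

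Mice of different genotypes share only a replicate number: same-numbered libraries correlated at -0.213 to 0.300 in gastrocnemius (own number best in 4 of 24) and at -0.261 to 0.130 in soleus (2 of 24). With the replicate block, 7 members passed in double KO against control, 4 against Acvr1b KO and 4 against Tgfbr1 KO in gastrocnemius. The shares of all genes with this block are not given here. With the animal as a replicate block, 17 passed between the control muscles, where leaving out single libraries gave 11 to 16, and it changed no other count. Departure from additivity was not run with only the compared groups, since it needs all 4 genotypes. With 4 libraries per group, the soleus spread of the fibrillar chains limits what can be detected there.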
